A study of Mus musculus with 6 samples.

Results

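Genes of DNA damage sensing and repair were followed in NIH3T3 cells, an immortalised line of mouse embryo fibroblasts that carried a radiation injury per the labels. Of 21878 genes in the table, 52 were taken by name, namely 19 of homologous recombination and the Fanconi pathway, 6 of end joining, 3 of mismatch repair, 14 of excision repair and 10 of damage signalling. Exosome libraries came from injured cells treated with plasma-derived exosomes, which are small vesicles released by cells, and PBS libraries from injured cells given phosphate-buffered saline. Each group has 3 libraries, all from the 72 h time point, and every library in both groups carries the radiation injury. The labels state neither the dose of radiation nor the source of the plasma, and do not say whether replicates were separate cultures, so the spread behind each p-value is that of these libraries and could be technical. Uninjured cells were not analysed here.

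Radiation breaks DNA and damages bases, and cells answer with a signalling cascade and with several routes of repair. Double-strand breaks are rejoined directly by end joining, which works throughout the cell cycle. Homologous recombination copies the sister chromatid and is largely limited to S phase and G2, so many of its genes are expressed in cycling cells. The Fanconi pathway opens crosslinks between strands, mismatch repair corrects replication errors, and excision repair removes damaged bases or bulky lesions. The kinases ATM and ATR and their mediators report damage to the cell cycle machinery.

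Values are read as FPKM (mapped fragments scaled by transcript length and library depth), a unit inferred from the tools the submitters name, since the column headers say only expression; a scale per length allows levels of different genes to be compared. Genes were tested by limma on log2(FPKM + 1) if they reached 1 FPKM in at least 3 libraries, and a gene with an adjusted p under 0.05 over all genes tested is called raised or lowered with exosomes. Log2 changes are exosomes over PBS on that scale, with their standard error (SE), and understate the change of genes with low values. Of the 52 repair genes, 47 were tested. The other 5, Brca2, Palb2, Xrcc3, Fancc and Pms2, were below this FPKM filter, which is not a filter on counts. Their mean normalized counts in the authors' table were 439, 92.1, 60.4, 112.5 and 304, against 84.0 for Ung, which was tested. Between 10080 and 10271 genes reached 1 FPKM per library. Counts per library are not among the columns, and the authors' group means of normalized counts sum to 19824812 with exosomes and 20341541 with PBS.

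The defining fibroblast markers were present. Of 8, 7 averaged at least 1 FPKM, the list summed to 4870 to 5058 FPKM with exosomes and 3586 to 3906 with PBS, and 4 were raised and 1 lowered. Fap was the member near 0. Of 10 leukocyte markers 3 averaged at least 1 FPKM, and the list summed to 4.51 to 5.30 FPKM with exosomes and 7.44 to 11.9 with PBS. Of these, Csf1r was at 0.295 ± 0.0752 FPKM with exosomes and 1.92 ± 1.24 with PBS (SD, n = 3 each), while Ptprc averaged 0.0344 with exosomes and 0.0467 with PBS and Tyrobp was listed at 0 in every library. Of the 2 leukocyte markers tested, Cd14 was lowered and Cd68 did not pass. Platelet and red cell markers summed to 3.86 to 4.60 FPKM with exosomes and 2.63 to 4.99 with PBS, with Gp9 and Alas2 listed at 0 in every library. The 1 tested marker of that list, Itga2b, was raised (log2 change 0.40 ± 0.10 by limma, adjusted p = 0.00862). None of 6 epithelial and 5 endothelial markers averaged 1 FPKM. The part of other cells in the values below was not tested.

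With exosomes, those of the 52 genes in homologous recombination, the Fanconi pathway and damage signalling that passed the test were all lowered, those in end joining that passed were all raised, and excision genes passed in both directions. The difference between routes was not tested, and the other genes of the same pathways, given at the end, had another balance of calls. Each gene was placed in 1 route, and the split depends on that choice. Trp53bp1, which was raised, was placed in end joining although its protein also acts in damage signalling. Over the 47 tested genes, 14 were lowered, 5 were raised and 28 did not pass, which is 29.8% lowered and 10.6% raised. Over all 10274 genes tested 18.4% were lowered and 25.4% raised, 43.8% in either direction. The share of repair genes called in either direction, 40.4%, was therefore near that of all genes. The median log2 change was −0.08 over the repair genes and 0.04 over all genes tested. Called changes were small on the log2(FPKM + 1) scale, between 0.17 and 0.40 in size with a median of 0.27. That scale understates genes with low values. Ung, at −0.40 on it, had a log2 fold of −0.768 in the authors' normalized counts. The 3 exosome values lay wholly to 1 side of the 3 PBS values for 26 of the 47 genes, against 55.6% of all genes tested.

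The counts depend on single libraries. Without exosome replicate 2 or without PBS replicate 1 the lowered genes numbered 8 instead of 14, and without exosome replicate 2 the raised ones numbered 3 instead of 5. Lowered genes among all genes numbered 1534 without exosome replicate 2 and 1403 without PBS replicate 1, instead of 1889. Of the 19 calls, 10 held in each of the 6 fits that left out a library: Exo1, Fanca, Msh6, Ung, Rad23b, Topbp1 and Mdc1 were lowered and Xrcc5, Trp53bp1 and Xpa raised.

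**Figure D1:**
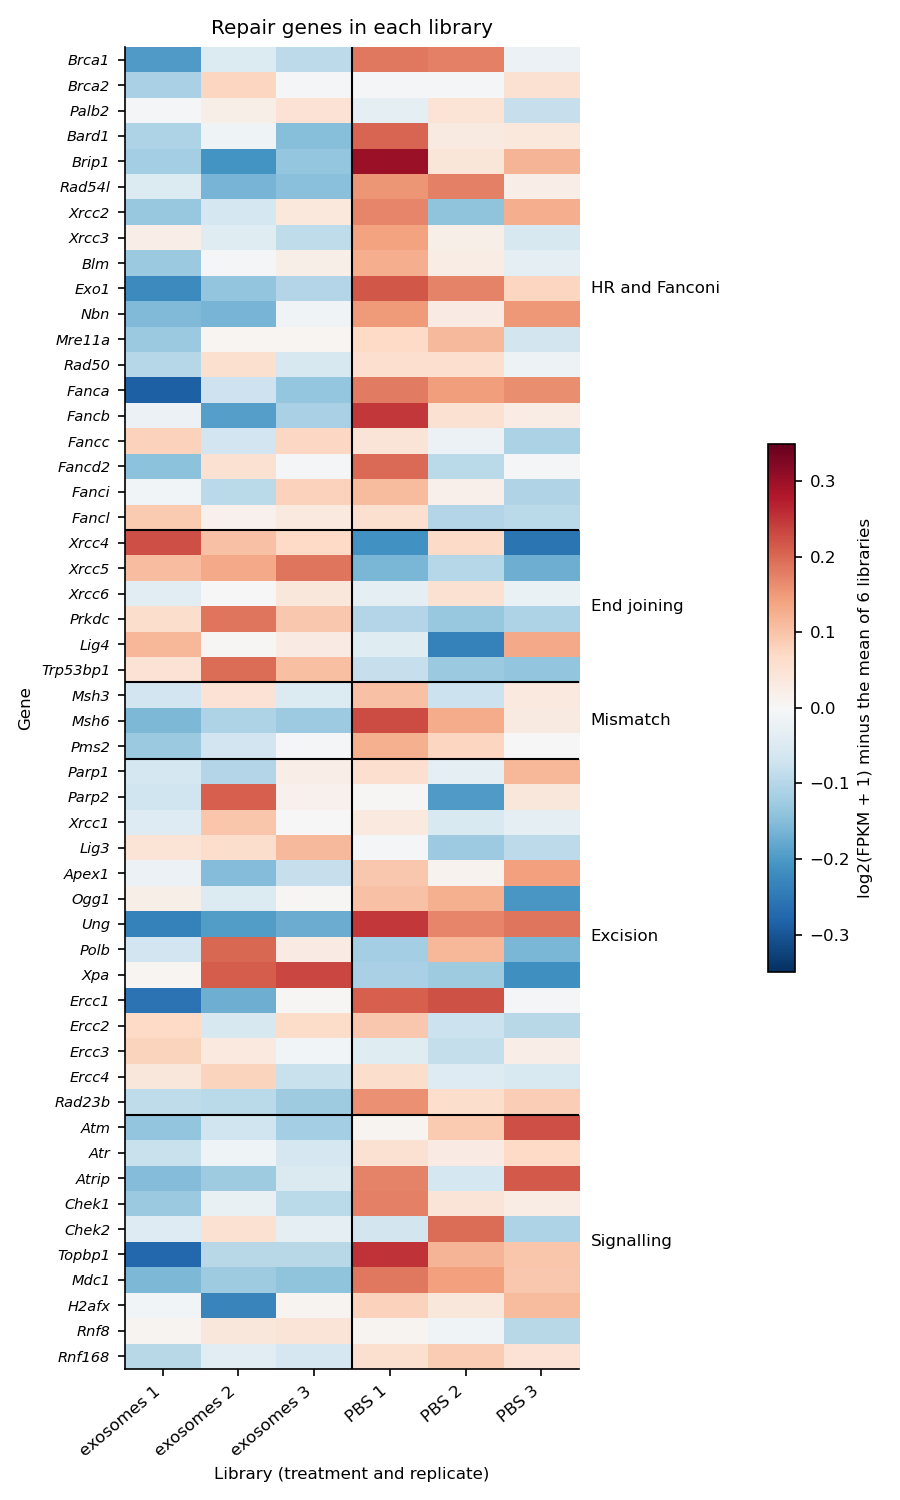
Each row is a repair gene, grouped by route, and each column a library, with exosome libraries on the left. Colour gives log2(FPKM + 1) minus the gene's mean over the 6 libraries. The end joining block is redder with exosomes, and the recombination and signalling blocks are bluer, with PBS replicate 1 highest on average in both blocks.

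**Figure D2:**
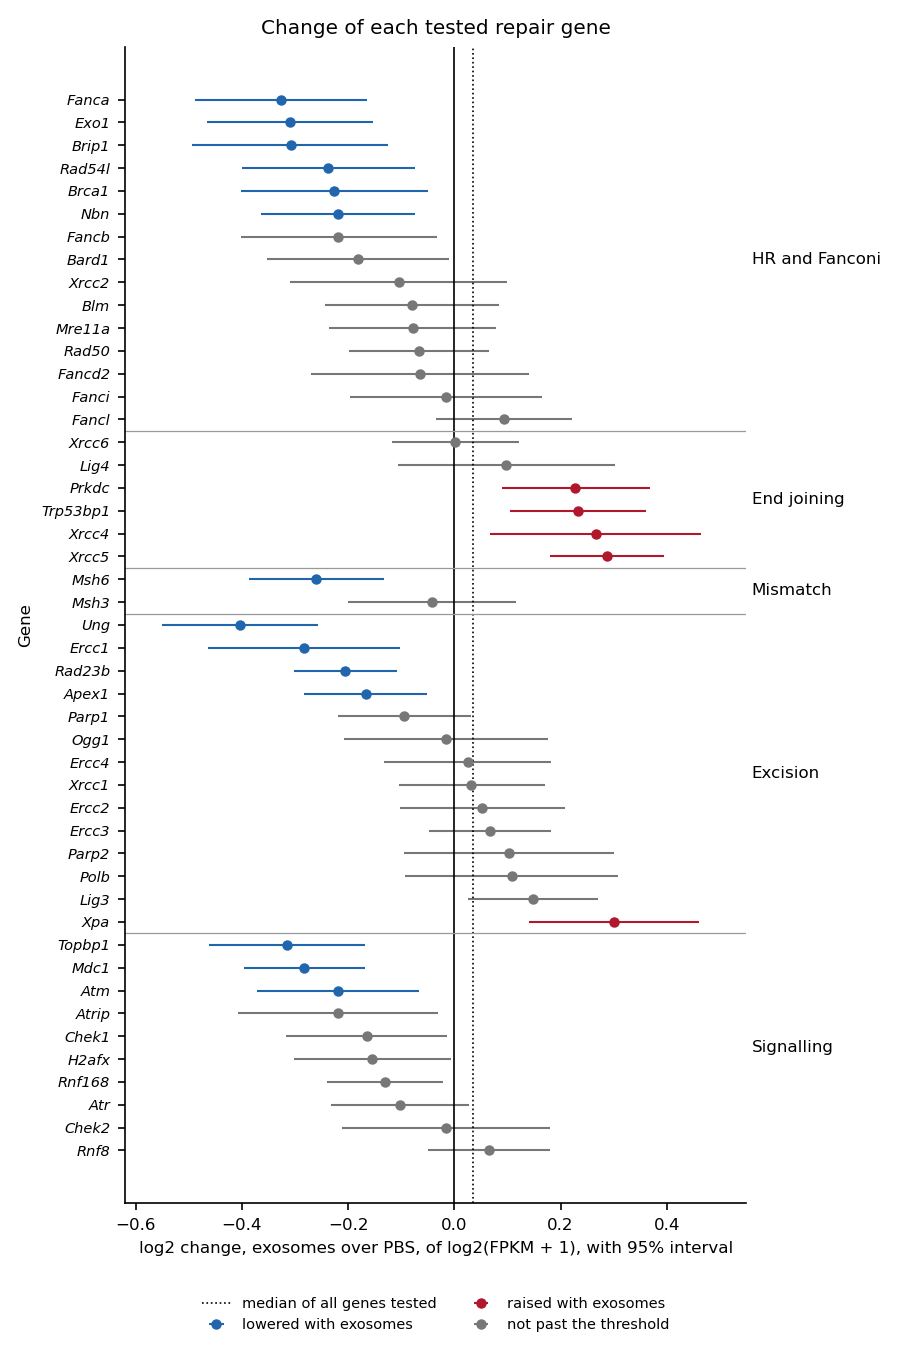
Points are log2 changes of log2(FPKM + 1), exosomes over PBS, for the 47 tested genes, with unadjusted 95% intervals, sorted within each route. The dotted line is the median of all genes tested, 0.04. Colour gives the call at an adjusted p under 0.05.

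Promoters of 4 lowered genes are shown for their letters and neighbours: Mdc1, Topbp1 and Msh6 are the lowered genes whose promoter holds a word bound by E2F factors, which drive genes of S phase, and that of Apex1 also holds the start of a neighbour that moved the other way. Each runs from 250 bases before to 50 after the start, 5′ to 3′ on the plus strand, from RefSeq on GRCm38.p6. Capitals mark the E2F words and the CCAAT box, a word bound by the factor NF-Y, on either strand. The intervals are chr17:35841248-35841547 for Mdc1, chr9:103305077-103305376 for Topbp1, chr17:87974800-87975099 for Msh6 and chr14:50924699-50924998 for Apex1.
Mdc1: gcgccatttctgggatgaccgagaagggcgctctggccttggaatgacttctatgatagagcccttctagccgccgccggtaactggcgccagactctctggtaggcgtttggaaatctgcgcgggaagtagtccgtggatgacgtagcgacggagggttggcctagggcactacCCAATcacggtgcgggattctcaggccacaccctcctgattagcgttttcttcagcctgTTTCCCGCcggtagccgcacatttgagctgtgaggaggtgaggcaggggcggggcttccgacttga
Topbp1: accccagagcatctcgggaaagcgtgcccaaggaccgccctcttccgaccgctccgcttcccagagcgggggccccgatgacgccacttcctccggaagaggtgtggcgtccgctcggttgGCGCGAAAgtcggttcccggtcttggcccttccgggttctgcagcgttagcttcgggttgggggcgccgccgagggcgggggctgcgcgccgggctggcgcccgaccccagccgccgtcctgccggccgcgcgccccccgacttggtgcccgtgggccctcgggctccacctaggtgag
Msh6: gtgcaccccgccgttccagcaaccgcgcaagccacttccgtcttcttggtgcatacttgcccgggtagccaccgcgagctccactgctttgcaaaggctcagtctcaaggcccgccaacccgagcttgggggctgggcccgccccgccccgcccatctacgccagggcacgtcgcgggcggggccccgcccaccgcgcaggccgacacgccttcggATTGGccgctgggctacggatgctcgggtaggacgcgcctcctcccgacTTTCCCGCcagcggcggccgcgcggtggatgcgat
Apex1: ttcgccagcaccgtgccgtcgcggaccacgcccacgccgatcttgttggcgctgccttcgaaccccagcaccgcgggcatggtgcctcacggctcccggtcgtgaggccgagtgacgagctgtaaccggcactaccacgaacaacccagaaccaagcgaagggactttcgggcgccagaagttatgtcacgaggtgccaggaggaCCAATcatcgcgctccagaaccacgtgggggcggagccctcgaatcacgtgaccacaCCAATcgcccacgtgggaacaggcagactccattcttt

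RefSeq promoters matched 43 of the 52 genes. The E2F words searched on both strands were TTTCGCGC, TTTGGCGC, TTTCCCGC and TTTGCCGC. They were found in 8 of the 43 promoters, which is 18.6%, against 2.3% of all 27025 genes with a promoter and 4.6% of 8351 genes tested. Of lowered repair genes 3 of 12 held an E2F word, of raised ones 0 of 4 and of those not past the threshold 4 of 22, namely Bard1, Xrcc6, Msh3 and Chek2. The CCAAT box was in 26 of the 43, or 60.5%, against 39.8% of genes tested, and in 9 of 12 lowered, 2 of 4 raised and 11 of 22 genes not past the threshold. TTTGAA, the core of the cell cycle element CHR, was in 2 of the 43, or 4.7%, against 11.5% of genes tested. Words of different kinds overlapped in 1 of the 43 promoters. Whether lowered genes held these words more often than the others was not tested, and a match describes the letters and not a bound site.

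Of the 19 homologous recombination and Fanconi genes, 15 were tested, and 6 were lowered, 0 were raised and 9 did not pass. The median log2 change was −0.18, with 14 of 15 changes below 0. The 6 of 15 called, all lowered, stand against 43.8% called and 18.4% lowered of all genes tested. Changes were below 0 for 4482 of all 10274 genes tested. For this route, limma gave 8 lowered and 0 raised at an unadjusted p under 0.05, and the authors' deposited table lists 6 lowered and 0 raised. These genes were low: only Fancl, the ubiquitin ligase subunit of the Fanconi core complex, exceeded 10 FPKM, at 12.3 ± 0.377 with exosomes and 11.5 ± 0.770 with PBS (an adjusted p of 0.211).

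Exo1, a nuclease that resects DNA ends and also serves mismatch repair, had 1.52, 1.67 and 1.73 FPKM in exosome libraries, against 2.41, 2.31 and 2.09 in PBS libraries. All exosome values were below all PBS values (log2 change −0.31 ± 0.07 by limma, adjusted p = 0.0062). Fanca, a scaffold of the Fanconi core complex, had 1.56, 1.97 and 1.84 FPKM with exosomes, against 2.54, 2.45 and 2.49 with PBS. The groups did not overlap, and the PBS libraries were closely spaced (log2 change −0.33 ± 0.07 by limma, adjusted p = 0.00559).

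Brip1, the helicase that binds BRCA1, had 1.02, 0.894 and 0.995 FPKM with exosomes, against 1.70, 1.25 and 1.38 with PBS. Its ratio of means, 0.671, was the lowest of the route (log2 change −0.31 ± 0.08 by limma, adjusted p = 0.0137), but it passed the filter on low values through the PBS libraries and only 1 exosome library. Rad54l, a motor protein of strand exchange, had 1.43, 1.25 and 1.27 FPKM with exosomes, against 1.80, 1.84 and 1.56 with PBS (log2 change −0.24 ± 0.07, adjusted p = 0.025). Nbn, a subunit of the MRN complex that senses broken ends, had 5.08, 5.04 and 5.70 FPKM with exosomes, against 6.49, 5.89 and 6.51 with PBS (−0.22 ± 0.06, adjusted p = 0.021).

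Brca1, which directs ends into recombination, had 1.86, 2.17 and 2.08 FPKM with exosomes, against 2.73, 2.71 and 2.23 with PBS. The highest exosome library and the lowest PBS library nearly met, and the call was close to the threshold (log2 change −0.23 ± 0.08 by limma, adjusted p = 0.0409). It ended with the replicate block (adjusted p = 0.0621), without the filter (0.0703), and without any of exosome replicates 1 to 3 or PBS replicates 1 and 2 (0.0566 to 0.137). Brip1 lost its call without exosome replicate 2 (0.0523) or PBS replicate 1 (0.0549), and Rad54l without either of these, exosome replicate 3 or PBS replicate 2 (0.0636 to 0.0829). Nbn lost it without exosome replicate 1 or 2 or PBS replicate 1 or 3 (0.057 to 0.0749). Lowered genes of the route numbered 2 without exosome replicate 2 and 2 without PBS replicate 1.

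Partners of lowered genes did not all pass. Bard1, which forms a ubiquitin ligase with BRCA1, had 1.34, 1.49 and 1.27 FPKM with exosomes, against 1.90, 1.57 and 1.59 with PBS, and its groups did not overlap (limma adjusted p = 0.0803). Fancb, another core subunit, averaged 1.47 ± 0.149 FPKM with exosomes and 1.88 ± 0.245 with PBS (an adjusted p of 0.056, and 0.0493 by upper quartile scaling, or 0.0454 when PBS replicate 3 was left out). The adjusted p of Fancb in the authors' deposited table is 0.0803. The other MRN subunits, the nuclease gene Mre11a and the coiled-coil ATPase gene Rad50, had log2 changes of −0.08 ± 0.07 and −0.07 ± 0.06, with 95% intervals of −0.24 to 0.08 and −0.20 to 0.06.

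Fancd2 and Fanci encode the pair that the core complex marks with ubiquitin. Fancd2 averaged 1.35 ± 0.163 FPKM with exosomes and 1.46 ± 0.260 with PBS, and Fanci 1.43 ± 0.147 and 1.46 ± 0.183, and both overlapped (limma adjusted p = 0.591 and 0.89). The helicase gene Blm and Xrcc2, a paralog of the strand exchange protein, had log2 changes of −0.08 ± 0.07 and −0.10 ± 0.09 and did not pass (adjusted p = 0.399 and 0.372). Of the 4 genes too low in FPKM to be tested, Brca2, which loads the strand exchange protein, averaged 0.985 ± 0.128 FPKM with exosomes and 1.02 ± 0.0498 with PBS. Without the filter its limma adjusted p was 0.781, and those of Palb2, which joins BRCA1 to BRCA2, Xrcc3 and Fancc were 0.599, 0.494 and 0.573.

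S phase genes were lowered in the same libraries. Of 22 S phase genes such as those of the MCM helicase, 18 were lowered, 0 were raised and 4 did not pass by limma (20 and 0 at an unadjusted p under 0.05, 19 and 0 in the authors' deposited table), with a median log2 change of −0.35. Their summed level was 262 to 297 FPKM with exosomes and 348 to 403 with PBS. Of 20 genes of G2 and mitosis, 2 were lowered, 0 were raised and 18 did not pass (2 and 0 unadjusted, 2 and 0 in the authors' deposited table), with a median of 0.01 and sums of 202 to 234 FPKM with exosomes and 204 to 245 with PBS. Deviations from the mean of all libraries averaged −0.11, −0.07 and −0.05 over the recombination and Fanconi genes in exosome replicates 1 to 3, and 0.16, 0.05 and 0.02 in PBS replicates 1 to 3. Over the S phase genes they averaged −0.26, −0.18 and −0.09 with exosomes and 0.28, 0.15 and 0.10 with PBS, and over the genes of G2 and mitosis −0.12, 0.03 and 0.05 with exosomes and 0.14, 0.01 and −0.10 with PBS. PBS replicate 1 was highest and exosome replicate 1 lowest in all 3 lists, and likewise over the mismatch, excision and signalling genes. Fewer cells in S phase and less RNA per cell cannot be told apart in bulk libraries, and the part of S phase in the repair genes was not tested.

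Of the 6 end joining genes, all tested, 4 were raised, 0 were lowered and 2 did not pass, with a median log2 change of 0.23. The share called was 66.7%, all raised, against 43.8% called and 25.4% raised of all genes tested. At an unadjusted p under 0.05 limma gave 4 raised and 0 lowered, and the authors' deposited table lists 4 raised and 0 lowered. Summed over the 6 genes, the level was 42.7 to 43.5 FPKM with exosomes and 36.3 to 37.6 with PBS.

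Xrcc5, the larger subunit of Ku, the ring that first binds a broken end, had 16.7, 17.0 and 17.7 FPKM with exosomes, against 13.7, 14.3 and 13.6 with PBS. It rose in every exosome library, with the smallest p of the route (log2 change 0.29 ± 0.05 by limma, adjusted p = 0.00129). Xrcc6, the smaller Ku subunit, had 6.51, 6.71 and 6.92 FPKM with exosomes, against 6.54, 6.99 and 6.58 with PBS. The groups overlapped (log2 change 0.00 ± 0.05, 95% interval −0.12 to 0.12, adjusted p = 0.981). The subunits of Ku work as a pair, and their RNA levels differed, with Xrcc5 above Xrcc6 in all 6 libraries. The difference between their changes was not tested.

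Prkdc, the kinase that Ku recruits, had 2.99, 3.35 and 3.08 FPKM with exosomes, against 2.56, 2.49 and 2.54 with PBS (log2 change 0.23 ± 0.06 by limma, adjusted p = 0.0149). The PBS values were within 0.1 FPKM of each other and all below the exosome values. Trp53bp1, which shields ends from resection and so favours end joining, had 6.67, 7.49 and 6.97 FPKM with exosomes, against 6.02, 5.78 and 5.73 with PBS (log2 change 0.23 ± 0.06, adjusted p = 0.00956). Its groups did not overlap either.

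Xrcc4, the scaffold of the ligation complex, had 6.05, 5.47 and 5.33 FPKM with exosomes, against 4.20, 5.32 and 4.05 with PBS. PBS replicate 2 reached almost to the lowest exosome library (log2 change 0.27 ± 0.09 by limma, adjusted p = 0.0354). Lig4, the ligase that Xrcc4 holds, averaged 3.53 ± 0.185 FPKM with exosomes and 3.25 ± 0.541 with PBS (an adjusted p of 0.404). The Xrcc4 call ended without the filter (0.0847) and without any of exosome replicates 1 to 3 or PBS replicates 1 and 3 (0.0513 to 0.122), and that of Prkdc without exosome replicate 2 (0.0606). Without exosome replicate 2, 2 genes of the route were raised.

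Damage signalling genes that passed were lowered. Of 10, all tested, 3 were lowered, 0 were raised and 7 did not pass, with a median log2 change of −0.16 and 9 of 10 changes below 0. The share called was 30.0%, all lowered, against 43.8% called and 18.4% lowered of all genes tested. At an unadjusted p under 0.05 limma gave 7 lowered and 0 raised, and the authors' deposited table lists 3 lowered and 0 raised. Summed over the route, the level was 79.9 to 84.1 FPKM with exosomes and 91.8 to 94.8 with PBS.

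Mdc1, the mediator that binds marked chromatin at breaks and spreads the ATM signal, had 6.88, 7.05 and 6.97 FPKM with exosomes, against 8.99, 8.71 and 8.38 with PBS. The exosome libraries lay within 0.2 FPKM of each other and below every PBS library (log2 change −0.28 ± 0.05 by limma, adjusted p = 0.00196). Topbp1, which activates ATR, had 13.8, 15.8 and 15.8 FPKM with exosomes, against 20.4, 18.5 and 18.2 with PBS (−0.31 ± 0.07, adjusted p = 0.00416). Its groups were also apart.

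Atm, the kinase that responds to double-strand breaks, had 3.88, 4.11 and 3.94 FPKM with exosomes, against 4.40, 4.71 and 5.28 with PBS (log2 change −0.22 ± 0.07 by limma, adjusted p = 0.0269). Its groups did not overlap, but the call ended without exosome replicate 1 (0.0777), exosome replicate 3 (0.0701) or PBS replicate 3 (0.09). Atr, the kinase of stalled replication forks, averaged 3.10 ± 0.0929 FPKM with exosomes and 3.40 ± 0.0612 with PBS. Its groups did not overlap and it missed the threshold (−0.10 ± 0.06, 95% interval −0.23 to 0.03, adjusted p = 0.177).

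Neither checkpoint kinase gene passed. Chek1, downstream of ATR, averaged 2.62 ± 0.134 FPKM with exosomes and 3.06 ± 0.234 with PBS (by limma, an adjusted p of 0.0744), and Chek2, downstream of ATM, 2.03 ± 0.113 and 2.07 ± 0.359 (adjusted p = 0.901). Atrip, the partner of ATR, was at 1.59 ± 0.0941 FPKM with exosomes and 2.02 ± 0.302 with PBS. It missed the threshold (adjusted p = 0.0601), with PBS replicate 2 at 1.68 among the exosome values, and passed without that library (0.00976). In the authors' deposited table the fold change of Atrip is 0.892 and its adjusted p 0.471.

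At breaks ATM marks the histone variant H2AX, and the ubiquitin ligases RNF8 and RNF168 then build the platform for 53BP1. H2afx averaged 29.0 ± 2.72 FPKM with exosomes and 32.3 ± 0.820 with PBS (by limma, an adjusted p of 0.0829), Rnf168 8.04 ± 0.179 and 8.89 ± 0.143 (0.0536, and 0.0472 without the filter), and Rnf8 9.19 ± 0.133 and 8.75 ± 0.376 (0.328). For all 3 the groups did not overlap, as for 55.6% of all genes tested, and none was called with the filter. None of the 3 is called in the authors' deposited table either (adjusted p 0.0557 to 0.606, with Rnf168 at 0.140).

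**Figure D3:**
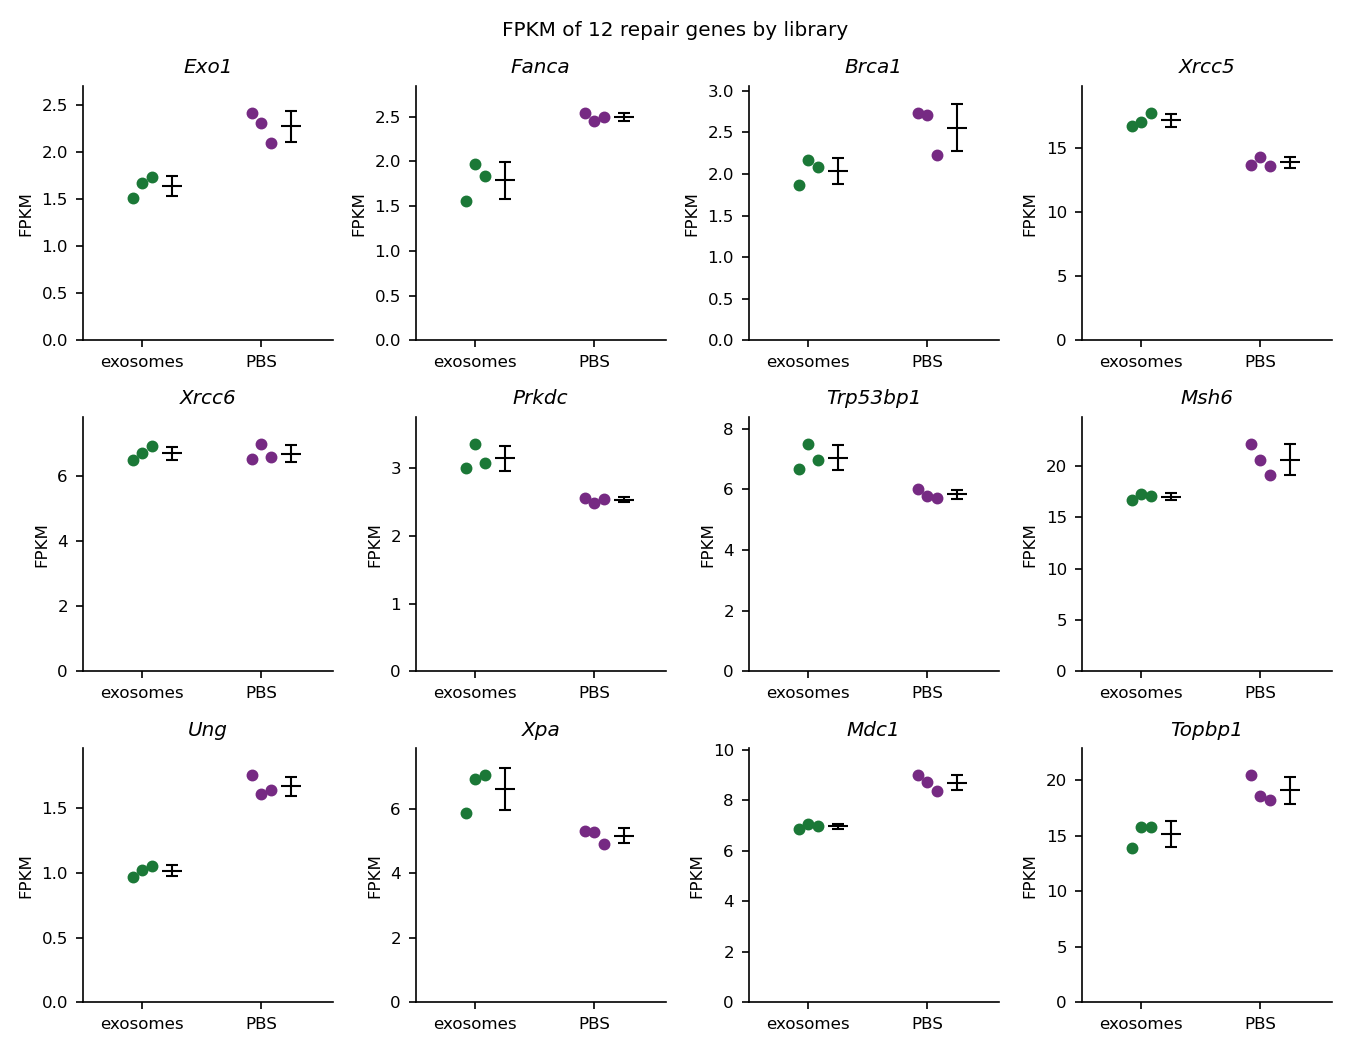
FPKM on linear axes from 0, with 1 point per library, exosomes on the left, and the mean ± SD beside each group (n = 3). Exo1, Fanca, Brca1, Msh6, Ung, Mdc1 and Topbp1 are lower with exosomes, Xrcc5, Prkdc, Trp53bp1 and Xpa are higher, and Xrcc6 overlaps at 6.51 to 6.92 with exosomes and 6.54 to 6.99 with PBS.

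Mismatch repair had 3 genes, of which 1 was lowered. Msh6, the partner that recognises base mismatches and small loops, had 16.7, 17.3 and 17.0 FPKM with exosomes, against 22.1, 20.5 and 19.1 with PBS. The groups did not overlap (log2 change −0.26 ± 0.06 by limma, adjusted p = 0.00525). Msh3, which recognises larger loops, averaged 2.45 ± 0.150 FPKM with exosomes and 2.55 ± 0.219 with PBS, and overlapped (−0.04 ± 0.07, 95% interval −0.20 to 0.12, adjusted p = 0.654).

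Pms2, the nuclease subunit that acts after recognition, had 0.643, 0.716 and 0.790 FPKM with exosomes, against 0.958, 0.892 and 0.796 with PBS, and never reached 1 FPKM. Its groups did not overlap, but only just. Without the filter its log2 change was −0.13 ± 0.06 (limma adjusted p = 0.142). In the authors' deposited table it has means of 265 normalized counts with exosomes and 342 with PBS, a fold change of 0.776 and an adjusted p of 0.0101. It is the only repair gene called there and not here.

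Excision repair genes moved both ways. Of 14, all tested, 4 were lowered, 1 were raised and 9 did not pass, with a median log2 change of 0.03, and 4 were lowered and 2 raised at an unadjusted p under 0.05. The authors' deposited table lists 4 lowered and 0 raised. By limma 28.6% of the route were lowered and 7.14% raised, against 18.4% and 25.4% of all genes tested. Rad23b and Apex1 had the highest levels of all 52 genes.

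In base excision, Ung, the glycosylase that removes uracil from DNA, had 0.967, 1.02 and 1.05 FPKM with exosomes, against 1.75, 1.61 and 1.64 with PBS. It had the largest change of the 47 genes, with a ratio of means of 0.609 and no overlap (log2 change −0.40 ± 0.07 by limma, adjusted p = 0.00113). It is also shallow. The authors' deposited table gives means of 62.2 normalized counts with exosomes and 106 with PBS, and the counting error of 1 library at their average is 10.9%. Apex1, the endonuclease that cuts at the site left by a glycosylase, had 44.1, 40.2 and 42.2 FPKM with exosomes, against 47.8, 45.1 and 49.5 with PBS (−0.17 ± 0.05, adjusted p = 0.0263). Its groups were apart, but the call ended without the filter (0.0524) and without exosome replicate 2 or 3 or PBS replicate 1 or 3 (0.0611 to 0.0972).

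No other base excision gene of the 52 passed. Parp1, which senses strand breaks, averaged 18.7 ± 0.895 FPKM with exosomes and 20.0 ± 1.08 with PBS (by limma, an adjusted p of 0.198), and Xrcc1, the scaffold it recruits, 4.80 ± 0.295 and 4.67 ± 0.182 (adjusted p = 0.69). Lig3, the ligase that XRCC1 carries, had 7.46, 7.55 and 7.87 FPKM with exosomes, against 7.17, 6.51 and 6.69 with PBS. All exosome values were above all PBS values (0.15 ± 0.06, adjusted p = 0.0527, and 0.0472 without PBS replicate 1). The adjusted p of Lig3 in the authors' deposited table is 0.324. Ogg1, the glycosylase of oxidised guanine, Polb, the gap-filling polymerase, and Parp2 overlapped between groups, with log2 changes of −0.02 ± 0.09, 0.11 ± 0.09 and 0.10 ± 0.09 (adjusted p = 0.893, 0.349 and 0.367).

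In nucleotide excision, Rad23b, the partner of the lesion sensor XPC, had 100.3, 99.8 and 97.9 FPKM with exosomes, against 119, 111 and 113 with PBS. It was the most abundant of the 52 genes, its exosome libraries were the closest but for those of Mdc1, and the groups were apart (log2 change −0.20 ± 0.04 by limma, adjusted p = 0.00463). Xpa, which verifies the lesion, had 5.86, 6.92 and 7.03 FPKM with exosomes, against 5.32, 5.27 and 4.89 with PBS (0.30 ± 0.07, adjusted p = 0.00802). Xpa is the only repair gene called here and not in the authors' deposited table, where its fold change is 1.25 and its adjusted p 0.0775.

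Ercc1 and Ercc4 form the nuclease that cuts 5′ of the lesion. Ercc1 had 18.6, 19.8 and 22.5 FPKM with exosomes, against 26.0, 26.3 and 22.3 with PBS, and it is the only called repair gene whose groups overlap (log2 change −0.28 ± 0.08 by limma, adjusted p = 0.0184). That call ended without the filter (0.0568) and without exosome replicate 1 or 2 or PBS replicate 1 or 2 (0.0555 to 0.0729). Ercc4 averaged 2.42 ± 0.191 FPKM with exosomes and 2.36 ± 0.150 with PBS (an adjusted p of 0.786). The helicase genes of TFIIH, Ercc2 and Ercc3, had log2 changes of 0.05 ± 0.07 and 0.07 ± 0.05 (adjusted p = 0.562 and 0.311). Lowered genes of the excision route numbered 2 without the filter, 2 without exosome replicate 2 and 2 without PBS replicate 1, and raised ones numbered 2 without PBS replicate 1.

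The authors' deposited table, made from counts, lists 15 of the 52 genes lowered and 4 raised at an adjusted p under 0.05. Of its 15844 genes with an adjusted p, 13.5% were lowered and 12.4% raised, but these include genes too low to be tested here. Of the 10274 genes tested by limma, the authors' table lists 2031 lowered and 1723 raised. Of the calls on the 52 genes, 18 were shared with limma and 0 were opposite. The log2 fold of counts was lower than that of mean FPKM by a median of 0.05 over all genes tested (−0.05 as counts minus FPKM), and the median log2 fold in the authors' table was −0.15 over the 47 tested repair genes and −0.01 over all genes tested here. Mean normalized counts in that table run from 60.4 for Xrcc3 to 10410 for Rad23b, so that counting alone gives 1 library an error of 12.9% and 0.98%. Some groups of libraries above were closely spaced, and the SDs given here were picked for being small. The SD was 1.78% of the mean for Fanca and 1.49% for Prkdc with PBS, and 1.24% for Mdc1 with exosomes. Their counting errors for 1 library, at the mean of both groups, were 5.44%, 2.99% and 2.20%. An SD of 3 libraries is itself uncertain, so these values do not show a spread tighter than counting would give.

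**Figure D4:**
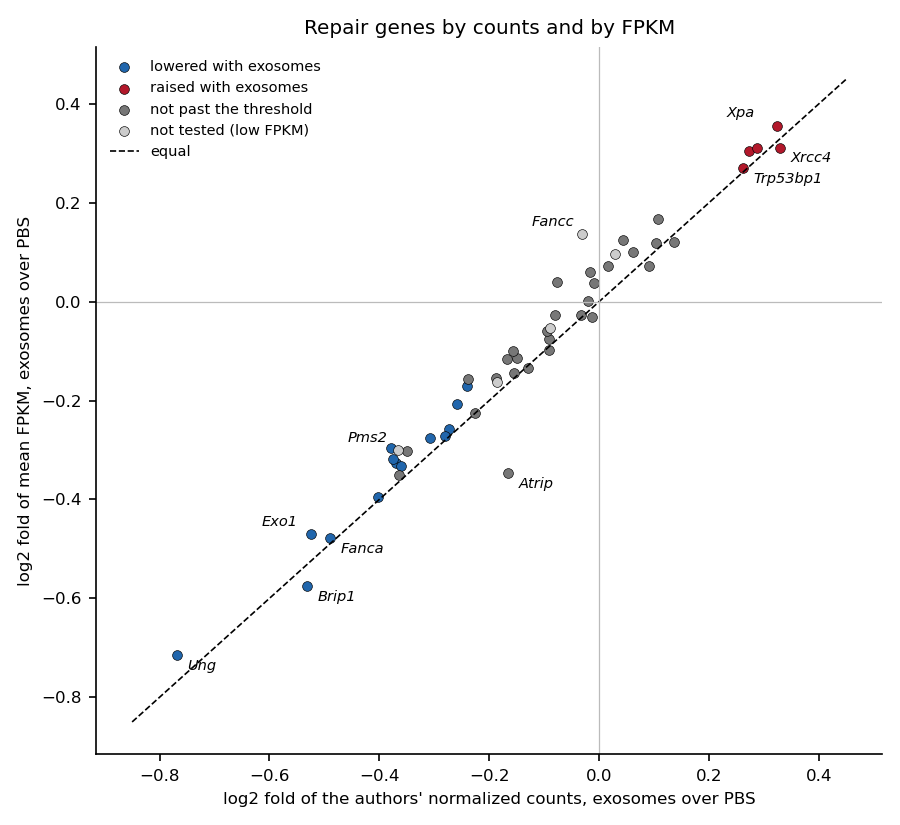
Each point is 1 of the 52 repair genes. The horizontal axis is the log2 fold of the authors' normalized counts and the vertical axis the log2 fold of mean FPKM, both exosomes over PBS, with colour for the call by limma and a dashed line of equality. Ung lies lowest and Xpa highest by FPKM, and Atrip stands below the line.

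Some values may hold reads of a neighbour. In GENCODE annotation 17 of the 52 genes share exon bases with a coding gene on the opposite strand, 8 of them called. The kit marks strand per the labels, but no source used here states that the counting made use of it, so these values are uncertain. Trp53bp1 shares 2130 bases with Tubgcp4, Apex1 877 with Pip4p1, Fanca 552 with Zfp276 and Ercc1 106 with Cd3eap, and Rad54l, Xrcc4, Msh6 and Xpa share 34 to 128 bases with another gene. Of these neighbours, Tubgcp4 had a log2 change of −0.13 (limma adjusted p = 0.133), against the rise of Trp53bp1. Cd3eap, a subunit of RNA polymerase I, was lowered like Ercc1 (−0.43, adjusted p = 0.000464). Ncbp1, which shares 77 bases with Xpa, was lowered while Xpa rose (−0.25, adjusted p = 0.00211). Lig3, not called, shares 1826 bases with Rffl, which was lowered (−0.30, adjusted p = 0.00936). Pms2 and Rnf8 share exon bases with annotated genes on the same strand, 363 and 1542 at most.

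Pairs of a repair gene with a coding gene that runs the other way and starts within 1000 bases were counted, and 17 are used here. The pairs were chosen by position after the values of the repair genes had been seen. In 11 pairs both genes were tested. Both were called in the same direction in 0 pairs and in opposite directions in 2, the repair gene alone was called in 4, the neighbour alone in 1 and neither in 4. Among pairs with an untested repair gene, Dctn5 beside Palb2 (log2 change 0.23 by limma, adjusted p = 0.00877) and Zfyve21 beside Xrcc3 (0.41, adjusted p = 0.00439) were raised and Aimp2 beside Pms2 was lowered (−0.38, adjusted p = 0.000338).

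Prkdc and Mcm4, a subunit of the replicative helicase, start 466 bases apart. Mcm4 had 19.5, 21.5 and 23.6 FPKM with exosomes, against 34.2, 29.7 and 30.7 with PBS, while Prkdc was higher in every exosome library than in any PBS library. Mcm4, also in the S phase list, was lowered (log2 change −0.53 ± 0.08 by limma, adjusted p = 0.000562) and Prkdc raised. Apex1 and Osgep, an enzyme of tRNA modification, start 75 bases apart, inside the promoter printed above. Osgep had 12.4, 10.9 and 11.8 FPKM with exosomes, against 8.74, 9.97 and 7.06 with PBS, and was raised (0.42 ± 0.10, adjusted p = 0.0107), whereas Apex1 was lowered.

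Hscb, a cochaperone of iron-sulfur cluster assembly beside Chek2, was raised (log2 change 0.65 ± 0.11 by limma, adjusted p = 0.00192). Atm and Npat, a regulator of histone genes, were both below PBS, and Npat did not pass (−0.14 ± 0.06, adjusted p = 0.081).

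**Figure D5:**
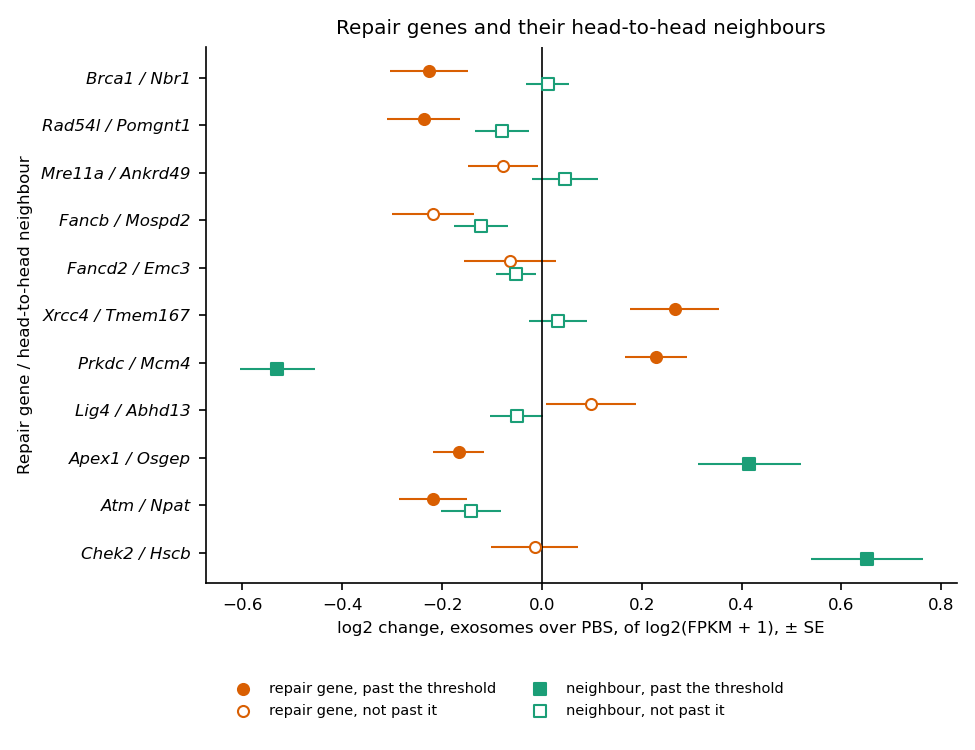
Log2 changes ± SE, exosomes over PBS, for the 11 pairs with both genes tested, with the repair gene as a circle and its neighbour as a square. Filled symbols are past the threshold. The symbols lie on opposite sides of 0 and are both filled for Prkdc with Mcm4 and for Apex1 with Osgep.

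The repair pathways hold many other genes, and 109 of them were listed by route. Of 97 tested, 12 were lowered, 29 were raised and 56 did not pass, or 12.4% and 29.9%, against 18.4% and 25.4% of all genes tested, with a median log2 change of 0.03. The authors' deposited table lists 17 of the 109 lowered and 21 raised. Among these other genes of recombination and the Fanconi pathway 3 of 29 were lowered and 10 raised. Of all 32 listed for that route, the authors' deposited table lists 4 lowered and 5 raised. The difference from the 19 genes above was not tested. Of the 10 raised, Fancg passed the filter only through the exosome libraries. It had 1.19, 1.21 and 1.08 FPKM with exosomes, against 0.978, 0.542 and 0.782 with PBS, and is not called in the authors' deposited table (adjusted p 0.0891). Mus81, Rmi1, Fance and Swi5, also among the 10, are not called there either (adjusted p 0.0628 to 0.267). Of other excision genes 3 of 28 were lowered and 11 raised, and of other end joining genes 1 of 11 was lowered and 4 raised. The authors' deposited table lists 4 lowered and 7 raised of 31 other excision genes. Of 13 other end joining genes it lists 2 lowered and 4 raised. Other signalling genes were lowered in 4 of 19 cases and raised in 0 by limma (6 and 2 at an unadjusted p under 0.05, 5 and 0 in the authors' deposited table).

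The raised genes of smallest p outside the 52 were Primpol, Poli, Uvssa and Ddb2. Primpol, which restarts synthesis past lesions, had 4.82, 4.83 and 4.14 FPKM with exosomes, against 2.50, 2.79 and 2.38 with PBS (log2 change 0.65 ± 0.07 by limma, adjusted p = 0.000166). The bypass polymerase gene Poli averaged 2.30 ± 0.233 FPKM with exosomes and 1.37 ± 0.118 with PBS (an adjusted p of 0.00105), Uvssa, of transcription-coupled repair, 5.38 ± 0.0632 and 4.00 ± 0.243 (0.00132), and Ddb2, which finds ultraviolet lesions, 3.05 ± 0.0377 and 1.89 ± 0.308 (0.00141). Among direct reversal and bypass genes 4 of 9 were raised and 1 lowered.

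The lowered genes of smallest p outside the 52 were Gtf2h1, Paxip1, Wee1 and Clspn. Gtf2h1, a TFIIH subunit, averaged 20.4 ± 0.765 FPKM with exosomes and 25.9 ± 0.180 with PBS (by limma, an adjusted p of 0.000476), and Paxip1, a chromatin adaptor that acts with 53BP1, 4.96 ± 0.103 and 6.85 ± 0.321 (0.000495). Wee1, the kinase that holds back mitosis, had 5.49, 6.47 and 5.43 FPKM with exosomes, against 8.20, 8.26 and 7.90 with PBS (−0.43 ± 0.07, adjusted p = 0.000957). Clspn, the adaptor through which ATR activates CHK1, had 2.52, 2.99 and 2.58 FPKM with exosomes, against 4.62, 4.10 and 3.68 with PBS (−0.47 ± 0.08, adjusted p = 0.00171). In both genes every exosome value was below every PBS value.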

How the data were processed

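RNA of 6 libraries was isolated with the mirVana kit, and stranded mRNA libraries were sequenced as paired ends, per the labels' protocols. Tools listed in the submitters' processing notes, without roles or versions, are DESeq, HTSeq, Cufflinks, StringTie, SAMtools, Bowtie2, HISAT2 and Trimmomatic, with the build mm9. The deposited expression columns are read as FPKM, inferred from Cufflinks and unequal column sums, since the headers say only expression. Per the file headers, the authors also deposited group means of normalized counts (a signal per gene), a ratio (the fold change, exosomes over PBS) with its p-values. Library columns were matched by the sample numbers of the labels, and identical values were found in 0 library pairs. No counts per library were at hand, so the test foreseen for FPKM was used: limma 3.58.1 in R 4.3.3 on log2(FPKM + 1), with trend and robust variances, group as the only term, two-sided, Benjamini-Hochberg adjustment over 10274 genes. The procedure was tested on simulated data. Of the 52 genes, those shown in full were those past the threshold, by route, the defining genes Xrcc6 and Pms2, and Bard1 and Lig3. Bard1 and Lig3 did not pass, and their groups did not overlap. Other defining genes were given as means or changes. Genes outside the 52 were named by smallest p, up to 4 per direction. Members and lists were chosen with earlier results of these data known. GENCODE vM21 and RefSeq tables on GRCm38 served for names, neighbours and promoters. 1 listed red cell marker was not matched. Alternatives were the pseudocount, the filter, library scaling, a replicate block and leaving out each library. 1 gene pair found by position is not reported here.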

Additional observations from a re-analysis of the deposited data

How the results depend on the processing

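With at least 5 FPKM required, 23 of the 47 genes were tested and 7 were lowered, 1 of them in homologous recombination and Fanconi, 2 excision genes were raised, and 12 of the other repair genes were raised; the smaller number of genes tested is part of that setting. Without the filter, 2 excision genes were lowered. A pseudocount of 0.1 changed 0 of the 47 calls, and upper quartile scaling added 1, Fancb. Leaving out 1 library at a time gave 8 to 12 lowered and 3 to 5 raised repair genes, 2 to 6 lowered recombination and Fanconi genes, 2 to 4 raised end joining genes, 2 to 3 lowered and 1 to 2 raised excision genes, 2 to 4 lowered signalling genes, 9 to 17 lowered and 20 to 26 raised other repair genes, and 1403 to 1848 lowered and 2049 to 2621 raised genes overall. Genes near 0 changed sign in those fits: log2 changes ran from −0.128 to 0.018 for Fancd2, −0.072 to 0.036 for Fanci, −0.018 to 0.028 for Xrcc6, −0.007 to 0.064 for Xrcc1, −0.121 to 0.043 for Ogg1, −0.007 to 0.071 for Ercc4 and −0.073 to 0.079 for Chek2. The cause was not tested. Same-numbered libraries deviated from their group means with correlations of −0.12, −0.02 and −0.30 across genes, and differently numbered ones with −0.194 to 0.285. With 3 libraries per group, these values cannot settle whether replicate numbers pair the libraries. With the replicate block 13 repair genes were lowered and 5 raised, the call lost being Brca1, and 1626 of all genes were lowered and 2288 raised. Counting error limits genes as shallow as Ung, at a mean of 84.0 normalized counts.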
